A study of Mus musculus with 10 samples.

Results

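The cytosolic ribosomal protein genes were examined for where chromatin was open around them while mouse fibroblasts were reprogrammed towards pluripotency. A gene belonged to the set when its symbol was Rpl or Rps followed by digits and at most 1 of the letters a, x, l or y, or was Rplp0, Rplp1, Rplp2 or Rpsa. The pattern was met by 83 symbols in the RefSeq annotation of GRCm38.p6, the same build as mm10, and 2 of them, Rps4l and Rpl6l, were annotated as pseudogenes and left out. The 81 genes that remained were 50 of the large subunit, among them the 3 stalk proteins, and 31 of the small subunit, out of 21883 protein-coding genes on chromosomes 1 to 19, X and Y.

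Open chromatin was measured by ATAC-seq, in which the Tn5 transposase cuts accessible DNA, and each of 10 samples was deposited as a list of peaks, 2 lists for each of 5 stages. The fibroblasts (MEF) carried an inducible OKSM cassette, for Oct4, Klf4, Sox2 and Myc, at Col1a1 and the M2rtTA activator at ROSA26, on a C57BL/6 x 129 background, and were kept in MEF medium with no doxycycline. Cells of the same genotype and strain were given ESC medium with doxycycline at 1 ug/ml and ascorbic acid at 50 ug/ml for 3 days (DAY3, unsorted), 6 days (DAY6) or 9 days (DAY9). DAY6 and DAY9 cells were sorted by a surface marker that the labels write as SSEA+. The embryonic stem cells (ESC) were the line V6.5, unsorted, grown in serum and LIF on irradiated feeder cells, with no OKSM cassette in the label. Sorting therefore coincided with DAY6 and DAY9, and cell line and genotype with ESC. Doxycycline, ascorbic acid and ESC medium coincided with DAY3, DAY6 and DAY9 against MEF. The absence of doxycycline set ESC apart from those days but not from MEF. None of these can be told apart from stage. Feeder cells were present in the ESC culture, 1 line stood for ESC, and all 10 samples had the same batch name. The labels number the 2 lists of a stage without saying whether they came from separate cultures.

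The lists held between 45497 peaks (DAY3 replicate 2) and 88980 peaks (ESC replicate 2), with median widths of 438 to 532 bp. The read depth was not in the lists, and the background pileup recovered from each list ran from 2.327 to 8.322 fragments. Between the 2 lists of a stage, the mean squared difference of peak heights at gene ends was 1.38 (DAY3), 1.63 (DAY9), 2.90 (DAY6), 3.09 (MEF) and 3.81 (ESC) times what counting error alone gives, and between lists of different stages 2.55 to 15.2 times. The DAY3 and DAY9 pairs were thus nearest to repeat counts of 1 sample, so agreement within those stages says less about separate cultures. With 2 lists against 2, the smallest two-sided p that an exact test can give is 0.333, so every comparison is a description. The main counts are set beside the same count over all protein-coding genes or all regions. In bulk samples, fewer cells with an open site and a less accessible site in each cell cannot be told apart. The stage labels were checked on marker genes, and some separated the stages. Nanog had a peak within 1 kb of a gene end in the DAY9 and ESC lists only, Prdm14 in the ESC lists only, Tdgf1 and Sall4 from DAY6 on, and the collagen gene Col3a1 and Postn in the MEF lists only. Others did not: 5 of 15 pluripotency markers, such as Pou5f1, and 5 of 10 fibroblast markers, such as Col1a1, had a peak in all 10 lists. Esrrb had one in ESC replicate 1 alone, Nr5a2 in no list, and the fibroblast marker Prrx1 in both lists of DAY9 and ESC as well as 1 list each of MEF and DAY3. Of 7 blood, endothelial and neural markers, 4 had no peak in any list, Ptprc, Cd3e and Pecam1 among them. The endothelial marker Cdh5 had one in 1 list each of DAY3, DAY9 and ESC, Neurod1 in every list from DAY6 on and Tubb3 in all 10 lists.

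Cytosolic ribosomes translate nearly all cellular mRNA, and each carries 1 copy of most of these proteins, folded onto ribosomal RNA in a small subunit that decodes the mRNA and a large subunit that forms peptide bonds. Their genes are transcribed in every growing cell. Many begin transcription within a run of pyrimidines, the 5′ terminal oligopyrimidine motif, through which mTOR signalling controls translation of their mRNAs. A few paralogs differ: Rpl10l, an intronless copy of the X-linked Rpl10, and Rpl39l are known from testis, Rpl3l from skeletal and heart muscle, and Rps27l as a broadly expressed relative of Rps27 that p53 induces.

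The promoters were read first, since they are what most of the peaks cover. RefSeq promoter sequences for GRCm38.p6, from 250 bases before to 50 after an annotated start, matched 61 of the 81 genes. The stretches from 60 bases before to 20 bases from the start are shown for genes on which the results turn: Rpl37 and Rpl15, whose peaks ranked among the strongest in every list, Rpl22 and Rpl35, whose ranks moved in opposite ways in ESC, and Rpl10l and Rpl39l, whose peaks differed by stage. Capitals mark a run of at least 5 C or T bases at the start, where there is one.
Rpl15: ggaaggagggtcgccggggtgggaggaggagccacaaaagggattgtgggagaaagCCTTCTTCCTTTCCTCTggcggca
Rpl35: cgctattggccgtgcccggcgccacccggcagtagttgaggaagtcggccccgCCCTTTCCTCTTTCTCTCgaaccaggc
Rpl37: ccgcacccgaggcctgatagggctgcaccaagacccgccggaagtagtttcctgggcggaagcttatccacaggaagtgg
Rpl22: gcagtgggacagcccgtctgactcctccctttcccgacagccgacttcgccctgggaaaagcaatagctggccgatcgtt
Rpl39l: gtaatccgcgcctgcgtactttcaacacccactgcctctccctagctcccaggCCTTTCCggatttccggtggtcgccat
Rpl10l: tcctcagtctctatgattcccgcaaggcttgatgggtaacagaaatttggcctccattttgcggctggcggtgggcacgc
The run was 17 bases long at Rpl15 and 18 at Rpl35. At Rpl37, Rpl22 and Rpl10l the longest run at the annotated start was 3, 1 and 4 bases. These stretches lie at chr14:18270967-18271046 (minus strand), chr2:39005112-39005191 (minus), chr15:5116553-5116632 (plus), chr4:152325666-152325745 (plus), chr16:10170168-10170247 (plus) and chr12:66284382-66284461 (minus), in the order printed.

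Pyrimidine runs of 8 or more bases, read on the gene's strand and touching the 5 bases on either side of the start, were present at 21 of the 61 promoters (34.4%), against 9.56% of the 17491 protein-coding genes with such a sequence and 9.65% of the 8853 of them with a gene-end peak in all 10 lists. The letters CTTTCC, on the gene's strand from 20 bases before to 30 after the start, were present at 10 (16.4%), against 2.24% and 2.21%. In the same stretch CTTTTC was present at 4 (6.56%, against 1.41% and 1.33%), and 2 genes had the longer CTCTTTCC, which contains the first (3.28%, against 0.246% and 0.282%). The ETS-type letters CCGGAAG, on either strand of the whole window, were in 24 promoters (39.3%), against 11.9% of all genes and 19.5% of those always open. The GC box GGGCGG was in 35 (57.4%), between the 46.3% of all genes and the 68.1% of the always open ones. TATAAA was in 6 (9.84%), ATGGCGGC, the YY1 letters, in 4 (6.56%), and an NRF1 motif in 1 (1.64%), against 13.3%, 3.18% and 1.32% of all genes and 6.19%, 5.51% and 2.32% of those always open. A match is only a match of letters, and binding was not measured.

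The 8-letter word TCTCGCGA, on either strand, was present in 9 of the 61 promoters (14.8%), against 1.52% of all genes and 2.51% of those with a gene-end peak in every list. The genes were Rpl7a, Rpl12, Rpl26, Rpl27a, Rpl35, Rps6, Rps15a, Rps19 and Rps28. The gene's strand was searched first, and the word was found on it at 7 of them. It ended 18 to 46 bases before the start at 5 (Rpl7a, Rpl12, Rpl26, Rps6 and Rps19) and 58 bases before it at Rps15a, and reached 7 bases past it at Rps28. It read on the other strand alone at Rpl27a and Rpl35, 13 and 181 bases before the start. At Rpl12, Rpl26, Rps6 and Rps28 the word was followed by GA, so it also read on the other strand there. The split by strand thus follows from the order of the search. Examples are shown with 12 bases on each side, since a larger share of these promoters than of all promoters holds the word, and capitals mark it.
Rpl12: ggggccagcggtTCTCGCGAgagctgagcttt
Rps6: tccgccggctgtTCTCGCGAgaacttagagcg
Rps19: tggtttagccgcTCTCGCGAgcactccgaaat
Rpl26: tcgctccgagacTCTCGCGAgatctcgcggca
They lie at chr2:32961646-32961677 (gene on the plus strand), chr4:86857399-86857430 (minus), chr7:24884553-24884584 (plus) and chr11:68901528-68901559 (plus), and the word ended 46, 43, 19 and 18 bases before the start. All 9 genes had a peak at the annotated start in every list.

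Nearly all ribosomal protein genes were open at every stage. A peak within 1 kb of either end of the gene record was listed in all 10 samples for 74 of the 81 genes, against 49.9% of protein-coding genes (10926 of 21883). Both lists of a stage held one for 76 genes in MEF (all genes, 55.6%), 75 in DAY3 (54.9%), 75 in DAY6 (59.5%), 75 in DAY9 (63.2%) and 76 in ESC (62.3%). Among other housekeeping groups, all 31 translation factors, 26 of 27 ribosome assembly factors, 34 of 36 proteasome subunits and 70 of 78 mitochondrial ribosomal proteins had a gene-end peak in all 10 lists, while 5 of 15 pluripotency markers and 5 of 10 fibroblast markers did. Of 9 related genes outside the naming rule, the ribosomal proteins Rps3a1 and Rack1 among them, 8 did and Rps27rt had none in any list. At the annotated start itself, 57 of the 61 genes with a promoter sequence had a peak in all 10 lists, against 50.0% of genes.

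In the set 3 genes differed by stage when a difference meant a gene-end peak in both lists of one stage and in neither list of another, and they were paralogs: Rpl10l, Rpl39l and Rps27l. The background of that call was 13.3% of protein-coding genes (2906). From MEF to ESC 1 gene was gained, Rpl10l (all genes, 5.2%), and none was lost (1.44%). From each of DAY3, DAY6 and DAY9 to ESC, Rpl10l and Rpl39l were gained (all genes, 6.69%, 3.01% and 2.1%). Rps27l was lost from MEF to DAY3 (2.25%) and to DAY6 (1.59%). The set had no other difference. Over all genes the gains were 1.19% from MEF to DAY3, 3.04% from MEF to DAY6 and 5.05% from MEF to DAY9, where 1.45% were lost. From DAY3, 3.08% were gained and 0.324% lost by DAY6, 5.74% gained and 0.393% lost by DAY9, and 0.905% lost in ESC. From DAY6, 1.56% were gained and 0.27% lost by DAY9 and 1.06% lost in ESC, and 1.76% were lost from DAY9 to ESC.

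Rpl10l (Entrez 238217, chr12:66283379-66284401) had a peak in the 2 ESC lists, with folds over local background of 8.36 and 6.52, and in none of the 8 others. The peak region, chr12:66283752-66285059, covered the annotated start and most of the gene body. Since an intronless copy shares its coding sequence with Rpl10, reads within the body may match both, and how such reads were placed is not given in the sources used here. Rpl39l (Entrez 68172, chr16:10170197-10174911) had its peak in MEF replicate 1 (fold 5.11) and both ESC lists (4.02 and 2.94), so the MEF lists disagreed. These peaks were weak: with the 45497 highest-scoring peaks of every list 1 list held the peak, with the highest-scoring 50% none (0 lists), and under both the gene no longer differed by stage. Both genes had the same calls at the annotated start as at the gene ends.

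Rps27l (Entrez 67941, chr9:66944624-66949522) was called different because of where its gene record ends. A gene-end peak was listed in both MEF lists (10.7 and 6.70), DAY9 replicate 2 (12.7) and ESC replicate 2 (8.56), but a peak lay at the annotated start, base 66946086 and inside the record, in all 10 lists. The start peak had folds of 10.7 and 6.70 (MEF), 8.70 and 7.77 (DAY3), 9.94 and 13.3 (DAY6), 13.5 and 12.7 (DAY9), and 9.74 and 8.56 (ESC). Counted at the annotated start, Rpl10l and Rpl39l were the 2 genes of the 61 that differed by stage (3.28%, against 9.9% of genes).

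Another 4 genes lacked a gene-end peak in at least 1 list. Rps2, the small-subunit protein at the mRNA entry side, had no gene-end peak in any list and a start peak in all 10, with folds from 5.89 to 10.8. Rpl19 lacked a gene-end peak in ESC replicate 2 alone and also had a start peak in all 10 lists (3.64 to 8.45). Rpl17 had no gene-end peak and no promoter sequence in the table used, and 1 region inside the gene had a peak in all 10 lists (5.36 to 10.5). Rpl32l had no peak at its ends or start in any list. The muscle paralog Rpl3l went the other way: its gene-end peak in all 10 lists, at chr17:24736173-24737023, lay at the end of its neighbour Msrb1, and its own annotated start had none in any list.

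**Figure D1:**
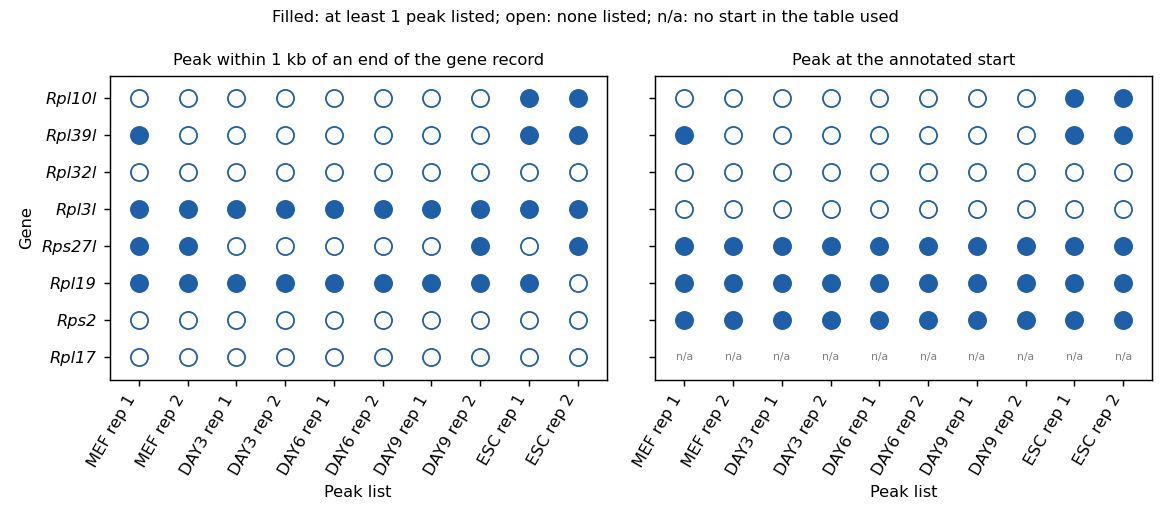
Presence (filled) or absence (open) of a peak in each of the 10 lists, on the horizontal axis, for the genes of the set that lacked one in at least 1 list by either rule, on the vertical axis. On the left, peaks within 1 kb of an end of the gene record; on the right, peaks at the annotated start, where Rps27l, Rpl19 and Rps2 are filled in all 10 lists and Rpl10l is filled in the 2 ESC lists alone.

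Peak strength was read as a rank within each list, because folds of different lists are not on 1 scale. The fold of a gene's strongest gene-end peak was turned into a percentile over the 10926 genes with such a peak in all 10 lists, 74 of them ribosomal protein genes. These 74 sat near the middle: their median percentile was 59.4 and 51.2 (MEF), 53.4 and 57.8 (DAY3), 51.0 and 51.3 (DAY6) and 52.8 and 50.3 (DAY9). The order of the 74 was largely shared between lists, with Spearman correlations of 0.71 to 0.87 for the 5 pairs of lists of the same stage and 0.52 to 0.85 for the 40 pairs of different stages. The points of these correlations are genes that share promoters and mappability across lists, and no test was made.

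Rpl37, Rpl15 and Rpl27, all of the large subunit, had the strongest peaks. The peak region of Rpl37 also lay at an end or start of Card6, and that of Rpl15 at one of Nkiras1. Rpl37 had folds of 18.2 and 12.7 (MEF), 16.4 and 15.1 (DAY3), 17.8 and 18.6 (DAY6), 19.7 and 19.5 (DAY9) and 16.9 and 14.5 (ESC). Its percentile ran from 92.1 to 99.4, and that of Rpl15, whose folds were 13.4 to 19.7, from 92.5 to 98.9. Rpl27 (77.5 to 99.7), Rps21 (55.3 to 93.0) and Rpl34 (77.1 to 94.8) followed, and each of the 5 was above the median gene in every list. At the weak end, Rpl8 had folds of 6.17 and 3.06 (MEF), 4.64 and 3.98 (DAY3), 4.86 and 6.04 (DAY6), 5.43 and 5.81 (DAY9) and 3.16 and 3.27 (ESC), and percentiles of 0.4 to 12. Rpl23a (2.5 to 33.0) was also below the median gene in every list. By rank among all gene-end peaks Rpl22 belonged to the weakest 5, but its record also begins away from its annotated start, where its peak ranked high outside ESC. Rpl37 and Rpl15 stand at the top of the map of start-peak percentiles, which holds neither Rpl8 nor Rpl23a, as the promoter table had no start for them.

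**Figure D2:**
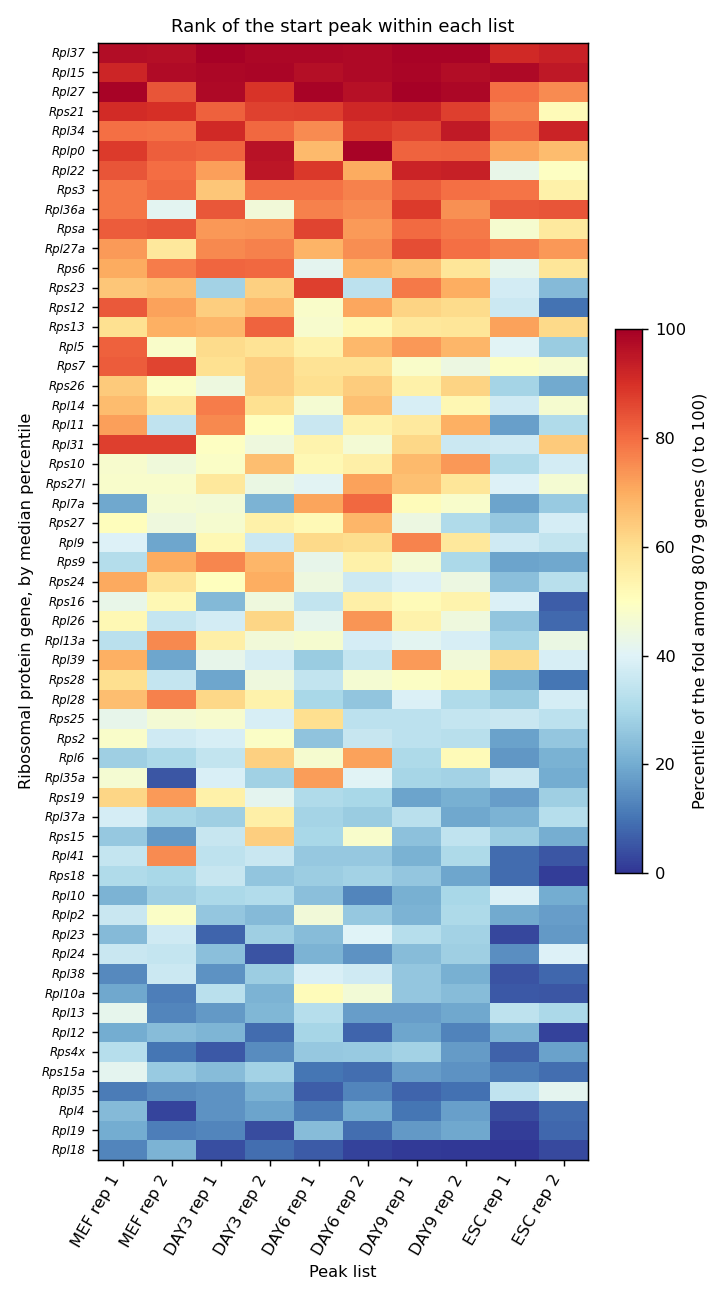
Percentile (colour, 0 to 100) of the fold of the peak over the annotated start among 8079 genes with such a peak in every list, for the 57 ribosomal protein genes among them (vertical axis, by median percentile) in the 10 lists (horizontal axis). Rpl37 and Rpl15 are above 90 in all lists, and most genes are bluer in the 2 ESC columns, where the median is 31.2 and 30.9.

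The set ranked lower in the ESC lists than in the others. The median percentile of the 74 genes was 36.4 and 38.9 in the 2 ESC lists, below each of the 8 other lists, and 20 and 25 of the 74 were above the median gene, against 37 to 42 in the other lists. Both ESC percentiles were below all 8 others for 22 of the 74 genes (29.7%), against 7.56% of the 10926 genes. Both were above all others for 1 gene, Rpl35 (1.35%), against 7.02% of genes. The same count below the rest was 0 for MEF (background 6.73%), 1 for DAY3 (3.62%), 2 for DAY6 (2.87%) and 1 for DAY9 (4.63%). Above the rest it was 8 for MEF (10.8%, against 6.63%), 2 for DAY3 (3.89%), 4 for DAY6 (2.75%) and 2 for DAY9 (4.17%).

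The ESC ranks were also the lowest by 2 other readings of the peaks. For the peak over the annotated start, the 57 genes had a median percentile of 43.9 to 48.6 in the 8 other lists and of 31.2 and 30.9 (ESC), and 19 of the 57 (33.3%) had both ESC values below all others, against 7.43% of 8079 genes. Ranked by −log10 p-value in place of fold, 26 of the 74 (35.1%) did, against 13.0%, and the ESC medians were 40.9 and 42.1, against 48.8 to 57.2 elsewhere. With only 1 ESC list in the comparison the bar is lower. The count by fold was then 33 without ESC replicate 1 and 34 without ESC replicate 2. The share over all genes was not counted there, so these counts have no background. The ESC lists held the most peaks (86585 and 88980), while their background pileups, 3.483 and 5.458, lay within the range of the other lists. The part of list length or depth in the lower rank was not tested.

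Both subunits had this pattern. The 29 small-subunit genes had median percentiles of 54.5 to 66.4 outside ESC and of 38.0 and 37.0 (ESC). The 45 large-subunit genes had 42.9 to 50.4 outside ESC and 36.1 and 39.9 (ESC). Other housekeeping groups also had low ESC medians. The mitochondrial ribosomal proteins were at 50.6 to 59.2 outside ESC and at 46.6 and 44.1 in ESC, and the proteasome at 52.4 to 66.7 outside and 51.4 and 48.8 in ESC, so in both groups, too, the 2 ESC medians were below all 8 others. Translation factors were at 51.6 to 64.5 outside and 44.9 and 52.5 in ESC, and ribosome assembly factors at 51.5 to 69.9 outside and 52.7 and 53.1 in ESC. The set's ESC medians were the lowest of these 5 groups, and the gap between groups was not tested. The 8 related genes outside the naming rule with a peak in all lists did not have this pattern. They were at 31.8 to 55.7 outside ESC, lowest in DAY9 replicate 2, and at 37.7 and 46.3 in ESC.

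**Figure D3:**
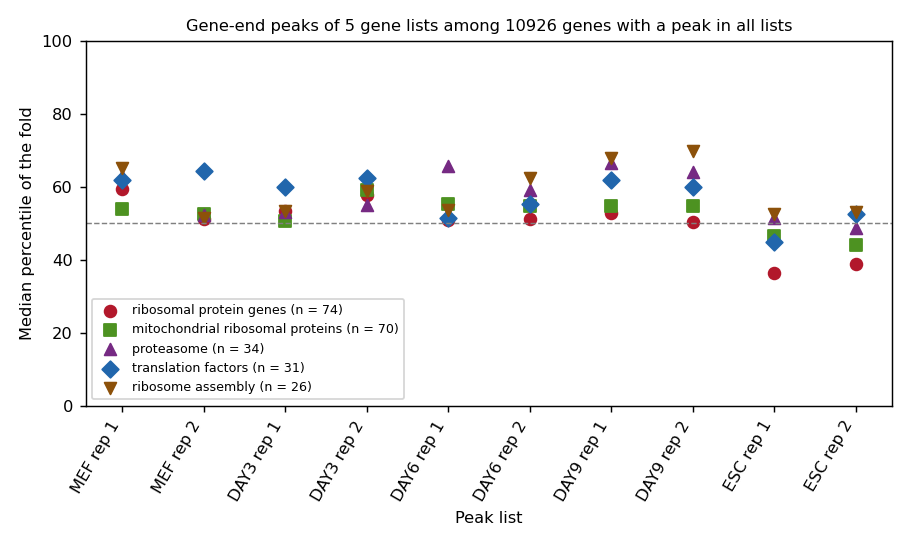
Median within-list percentile of the gene-end peak fold (vertical axis, 50 is the median gene, dashed line) in each of the 10 lists (horizontal axis) for ribosomal protein genes and 4 other housekeeping groups. The ribosomal protein genes are at 50.3 to 59.4 in the 8 MEF and reprogramming lists and at 36.4 and 38.9 (ESC), the lowest of the 5 groups there.

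Among small-subunit genes, Rps20, a protein of the subunit head, had one of the widest gaps. Its folds were 14.5 and 12.1 (MEF), 10.7 and 12.5 (DAY3), 12.5 and 15.5 (DAY6), 15.9 and 14.7 (DAY9) and 9.18 and 8.18 (ESC). In percentiles it was at 72.5 to 95.0 in the 8 other lists and at 38.0 and 45.9 (ESC), so the groups did not overlap. Rps26, at the mRNA exit, was at 48.8 to 67.2 outside ESC and at 32.1 and 22.3 (ESC). Rpsa, which is both a small-subunit protein and the laminin receptor precursor, was at 74.8 to 87.6 outside ESC and at 51.0 and 60.5 (ESC). Rps9, Rps10, Rps12, Rps18, Rps21 and Rps24 also had both ESC values below the rest.

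The stalk proteins recruit translation factors to the large subunit, Rplp0 as the base and Rplp1 and Rplp2 as the paired arms. Rplp1 folds were 9.65 and 6.92 (MEF), 8.58 and 9.03 (DAY3), 8.65 and 12.1 (DAY6), 9.22 and 10.3 (DAY9) and 5.61 and 5.07 (ESC). Its percentile was 28.8 to 64.5 outside ESC and 8.8 and 12.3 (ESC), and that of Rplp2 was 25.6 to 52.3 outside and 22.2 and 19.4 (ESC). Neither gene's ESC values overlapped the rest. Rplp0 was among the strongest of the set, at 69.9 to 99.1, and its ESC values (73.3 and 69.9) overlapped those of DAY6.

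Large-subunit genes with both ESC values below the rest included Rpl5 and Rpl11, which bind 5S rRNA and, when free, the p53 regulator Mdm2, as well as Rpl3, at the peptidyl transferase centre, and Rpl6, Rpl8, Rpl10a, Rpl26, Rpl27, Rpl37 and Rpl38. Rpl3 was at 52.9 to 86.3 outside ESC and at 32.0 and 40.9 (ESC). At Rpl37 the step was small, from 96.8 to 99.4 outside ESC to 92.1 and 93.6 within it, and the gene stayed among the strongest peaks. At its annotated start Rpl22, a protein that Rpl22l1 can replace, had folds of 14.9 and 9.47 (MEF), 9.96 and 13.5 (DAY3), 14.8 and 13.1 (DAY6), 17.2 and 17.4 (DAY9) and 10.1 and 8.88 (ESC). Those were percentiles of 70.1 to 95.3 outside ESC and of 42.9 and 49.4 (ESC).

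Rpl35, at the exit of the peptide tunnel, was the exception in the other direction. Its folds were 6.48 and 4.28 (MEF), 5.53 and 6.11 (DAY3), 5.79 and 7.13 (DAY6), 6.35 and 6.72 (DAY9) and 9.10 and 8.11 (ESC). Its start peak was at percentiles of 6.3 to 21.5 outside ESC and of 34.0 and 41.6 (ESC). It was thus weak in the 8 other lists and nearer the median gene in ESC.

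The start peaks of the set were also short on the gene side. For the 57 genes with a start peak in every list, the peak reached a median of 366 and 299 bp downstream of the start in MEF, 387 and 402 (DAY3), 392 and 346 (DAY6), 374 and 354 (DAY9) and 256 and 282 (ESC). Over the 8079 genes the same medians ran from 397 to 482 bp, and were 404 and 463 (ESC). Both ESC lists reached less far downstream than all other lists at 8 of the 57 genes (14%, against 7.61% of genes), and less far upstream at 8 (14%, against 6.34%). The centre of the peak lay 21 to 64 bp upstream of the start for the median gene of the set, and 0 to 22 bp downstream for the median gene overall. A lower peak also crosses the caller's threshold over a shorter stretch, and the share of height in the extent was not tested.

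**Figure D4:**
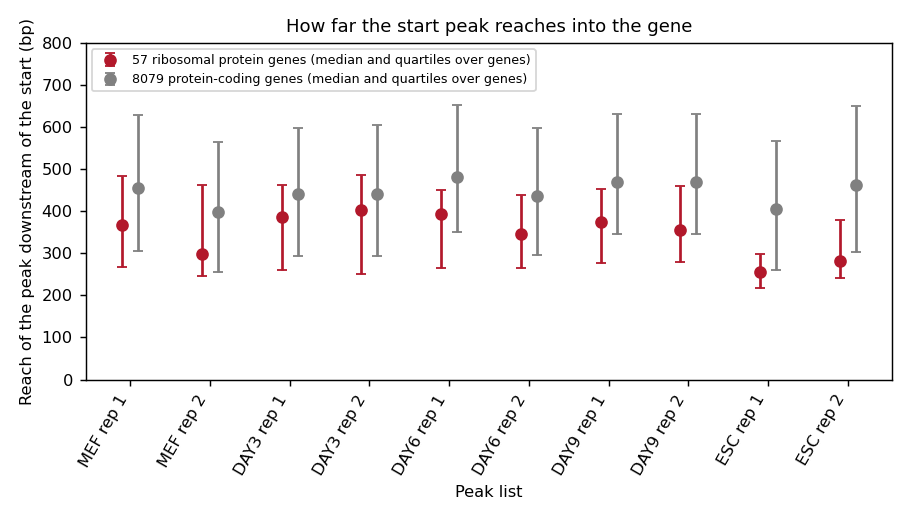
Distance in bp that the peak over the annotated start reaches into the gene (vertical axis) in each of the 10 lists (horizontal axis), for 57 ribosomal protein genes and for 8079 protein-coding genes; points are medians and bars the quartiles over genes. The set's medians, 256 to 402 bp, are below those of all genes in every list and lowest in the 2 ESC lists.

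Around the genes, a smaller share of regions differed by stage than in the genome as a whole, a gap that was not tested. Merging the 10 lists gave 208851 regions, and 355 lay within 10 kb around a gene of the set: 114 at an end or start of a gene of the set, 70 at an end of another gene, 4 inside and 167 outside. A peak was listed in all 10 samples for 76.3% of the 114 regions at the genes' own ends, 41.4% of the 70 at other genes' ends and 6.43% of the 171 away from ends. The like shares were 47.4% of regions at the ends of any protein-coding gene, 2.64% of those away from ends within 10 kb around any such gene, and 7.35% of all regions. In total 86 of the 355 regions (24.2%) differed between at least 1 pair of stages, against 45.4% of all regions and 44.2% of those within 10 kb around any protein-coding gene. Away from gene ends 59 of 171 (34.5%) differed, against 47.9%, and at the genes' own ends 14 of 114 (12.3%), against 26.4%. For 35 of the 81 genes no region beyond their own ends differed.

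From MEF to ESC 35 of the 355 regions were gained (9.86%, against 15.9% of all regions) and 10 were lost (2.82%, against 11.1%). From MEF to DAY3 11 were gained (5.43% of all regions were) and 12 lost (10.4%). From MEF to DAY6 the counts were 16 (9.46%) and 10 (10.6%), and from MEF to DAY9 40 (16.8%) and 9 (11.0%). From DAY9 to ESC 18 were gained (9.1%) and 24 lost (9.24%). The ESC lists were the longest. With the 45497 highest-scoring peaks of every list, merging gave 129038 regions. Of those around the set 17 were gained and 17 lost from MEF to ESC, and of all of them 12.9% and 12.9% were. How many lay around the set was not counted there, so the 17 are not shares of the 355. That setting also leaves out the weaker peaks, and the part of list length was not tested. Judged from 1 list of a stage the counts were higher, with 69 gained without ESC replicate 1 and 61 without ESC replicate 2. Lost were 30 without MEF replicate 2, 22 without MEF replicate 1 and 18 without ESC replicate 1. The like shares of all regions were not counted.

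**Figure D5:**
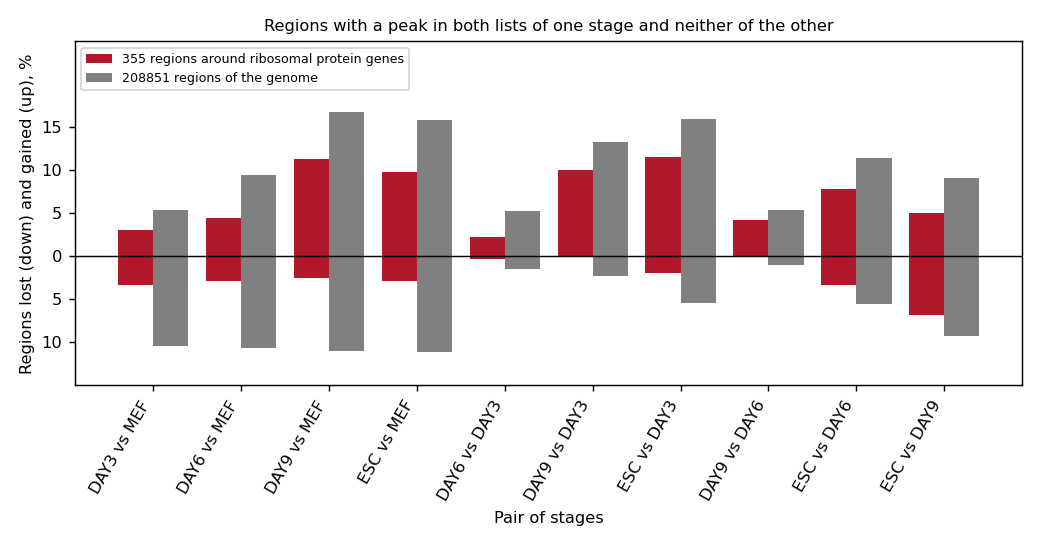
Percent of regions gained (bars up) and lost (bars down) in the first-named stage against the second, for the 10 pairs of stages on the horizontal axis, among 355 regions around ribosomal protein genes and among all 208851 regions. From MEF to ESC 9.86% and 2.82% of the regions around the genes were gained and lost, against 15.9% and 11.1% of all regions.

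Of the 86 regions that differed, 14 had a peak in both ESC lists and no other (3.94% of the 355, against 7.91% of all regions). Among them were one 2225 bp from Rpsa, chr9:120134594-120135756 (folds 3.85 and 3.01), one 5762 bp from Rps3, chr7:99471607-99472134 (4.08 and 4.17), and one at an end of Rpl11, chr4:136048339-136048653 (4.24 and 3.56). Another 7 were listed in MEF alone (1.97%, against 8.32%), such as chr5:115572615-115573697, 8886 bp from Rplp0 (4.76 and 4.61). Of the paralogs, Rpl39l and Rpl10l each had one: chr16:10165618-10166053 near Rpl39l (5.02 and 3.11) and chr12:66286063-66286423 near Rpl10l (4.08 and 6.87). Both of these lay outside the gene, and neither was listed in ESC, where both genes had a start peak. Rpl39l also had its start peak in MEF replicate 1 (5.11), which held the nearby region too.

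A further 5 regions were listed in both lists of DAY3, DAY6 and DAY9 and absent from MEF and ESC (1.41%, against 1.69% of all regions). The one 7848 bp from Rpl34, chr3:130738246-130739071, had folds of 5.08 and 7.02 (DAY3), 8.81 and 8.38 (DAY6) and 14.3 and 11.8 (DAY9). The one 9471 bp from Rps19, chr7:24874084-24875121, had 6.90 and 8.99, then 9.79 and 14.2, then 11.2 and 11.8. The others lay 8539 bp from Rpl19 (7.84 to 12.7), 7952 bp from Rps24 (4.86 to 8.17) and 4170 bp from Rps10 (3.60 to 7.88).

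Regions listed in every stage but MEF numbered 3 (0.845%, against 1.26%): chr12:69164617-69165260, 5431 bp from Rps29 (3.40 to 8.69), chr7:118116754-118117760, 607 bp from Rps15a (2.60 to 7.02), and chr15:80090732-80091663 at the end of Syngr1 near Rpl3 (2.90 to 7.69). These regions were thus listed from DAY3 on.

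The gene with the most differing regions beyond its ends was Rpl30, with 5 of 5. The region at chr15:34430358-34430877 was listed in DAY6 and DAY9 (3.57 to 5.14), the one at the end of Matn2 in DAY9 alone (3.19 and 3.67) and the one at chr15:34438433-34438990, 1515 bp from the gene, in ESC alone (4.26 and 2.62). Another, chr15:34434540-34435120, was in both lists of DAY6 and DAY9 and 1 list each of MEF and DAY3, and one at the end of Erich5 was in DAY9, ESC and DAY6 replicate 1. Rpl30's own peak was in all 10 lists, at percentiles of 54.2 to 87.9. Rpl10l, Rpl34, Rpl37 and Rpl37a had 3 differing regions each, and Rpl17 and Rpl18 2 each. At Rpl10l, whose promoter was open in ESC, a region 7070 bp away, chr12:66275225-66276309, was listed in DAY6 replicate 2 (4.81), both DAY9 lists (3.72 and 5.26) and both ESC lists (11.1 and 7.25).

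Some start peaks are shared with a neighbour. Another protein-coding gene in the promoter table began within 1 kb of the start at 8 of the 61 genes (13.1%, against 17.3% of the 8853 always open genes). Each time it was on the opposite strand: Med22 beside Rpl7a, Lrsam1 beside Rpl12, Rab13 beside Rps27, Lias beside Rpl9, Sphk2 beside Rpl18, Iqcg beside Rpl35a, Ndufa7 beside Rps28 and Vps52 beside Rps18. At these genes a peak cannot be assigned to one of the partners. By median over the lists, the peak of Rpl18 and Sphk2 was the weakest start peak of the 57, at percentiles of 0.1 to 21.6, though in some lists another gene was lower.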

How the data were processed

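ATAC-seq peak lists of 10 samples (5 stages, 2 lists each) were used. The submitters' processing notes name Bowtie2 2.3.2, MACS2 2.1.1, deepTools 2.3.6 and the build mm10; read filters and the peak threshold are not given in the sources used here. The lists deposited by the authors have no header, and each peak carries a score (10 times −log10 p, rounded down in all 10 lists), a fold enrichment (a ratio over local background) and −log10 p and −log10 q values. The lowest −log10 p-value was 5.0. No summit was listed, so the planned summit alternative was replaced by the peak centre, chosen after seeing the data, as were the annotated-start and percentile counts. Total reads were unknown; the background pileup was recovered from each deposited fold and −log10 p-value by the Poisson formula, and peak heights at gene ends of at least 40 were compared between lists with their counting error.

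Gene records, biotypes and promoter sequences came from RefSeq tables for GRCm38.p6. A gene was open in a list when at least 1 base of a peak lay within 1 kb of either end. Calls of a peak at the annotated start counted any overlap with any promoter window of the gene. Percentiles and reach of start peaks used the strongest peak that covered the first listed start base itself. A region is a merged stretch of peaks of all 10 lists. A difference between stages needs a peak in both lists of one and neither of the other. Folds and −log10 p-values were turned into percentiles within a list and not compared between lists; pileup heights and the reach of start peaks in bp were. No test was made. Calls are set beside the same calls over all features, except under some of the alternative settings. The members and lists were chosen with earlier results of these data known. Genes named are those lacking a gene-end peak in any list, the 5 strongest and 5 weakest by median percentile among all gene-end peaks, the 8 with the most differing regions, the paralogs, the stalk proteins and Rpsa; other genes named were chosen after their values were seen. On simulated lists with 21883 genes, 200 changed in each direction and 5% of peaks dropped, 186 gains and 175 losses were recovered. All simulated lists were made from the DAY3 replicate 1 list. They lacked the differences in length and between replicates of the real lists, so the recovery in the real lists is not known. Python 3.11.15, pandas 2.3.3, numpy 2.4.6, scipy 1.17.1 and matplotlib 3.10.9 were used. Some results the naming rule covers are not reported here.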

Additional observations from a re-analysis of the deposited data

How the results depend on the processing

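No paired analysis was possible because the results are counts of listed peaks that come from no test, and the replicate numbers pair no samples across stages. The number of genes with a gene-end peak in all 10 lists was 74 and ran from 66 (highest-scoring 50% of each list, 40.6% of all genes) to 77 (2.5 kb window, 54.5%). The number that differed by stage was 3, against 13.3% of all genes. It was 5 with the highest-scoring 50% of each list (Rpl8, Rpl10l, Rpl19, Rpl22 and Rps27l), against 14.2%. With an equal number of peaks 4 differed (Rpl8, Rpl10l, Rpl19 and Rps27l), against 12.7%. Rpl39l was thus not called under either of these settings. Rpl10l and Rpl39l were the 2 with a 500 bp window (all genes, 12.5%), a 2.5 kb window (14.7%) or the annotated start (9.9%). Regions gained from MEF to ESC were 35, and 17 with an equal number of peaks, 19 with the highest-scoring 50% and 20 within 5 kb; those lost were 10, and 21 when 50% of the region had to be covered, 17 with an equal number of peaks and 4 within 5 kb. Regions that differed were 86, and 202 when 1 list of a stage sufficed and 40 within 5 kb. The settings with fewer peaks merge the regions anew and the 5 kb setting takes in fewer of them. Their counts are therefore not shares of the 355 regions. Leaving out each list in turn gave 74 to 75 genes open in all lists, 3 to 4 that differed, 76 to 77 (MEF), 75 to 75 (DAY3), 75 to 75 (DAY6), 75 to 76 (DAY9) and 76 to 77 (ESC) open in a stage, 22 to 34 with both ESC percentiles lowest, 35 to 69 regions gained, 10 to 30 lost and 93 to 129 that differed. Fewer lists per stage make a call easier by construction, and the shares over all genes or regions were not counted with a list left out. Other alternatives kept the counts within 1.5 times. Gene-record bounds limit the gene-end calls, and for 20 genes no annotated start was used. Depth limits weak peaks: a peak not listed was not detected at that list's threshold and is not shown to be closed.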
